A study of Mus musculus with 3 samples.

Results

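The genes described here are the 32 semaphorins, plexins, neuropilins and collapsin response mediators that were looked up by symbol in a list of Isl1 binding sites from mouse cardiac progenitor cells (CPCs). Isl1, a transcription factor with LIM domains and a homeodomain, marks the second heart field, which is the progenitor pool that adds the outflow tract and right ventricle to the heart tube. A peak, meaning a stretch of DNA enriched after chromatin immunoprecipitation followed by sequencing (ChIP-Seq), belonged to a member if its assigned gene symbol was 1 of the 32. After identical lines were dropped, 34 of the 14082 distinct peaks did so, and they lay on 14 chromosomes. They gave 23 of the 32 members at least 1 peak, and 9 members had none.

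The chromatin came from E14 Tg(Nkx2–5-EmGFP) ES cells, a mouse embryonic stem cell line in which a fluorescent protein reports the early cardiac gene Nkx2-5. The cells were differentiated by aggregation with Activin A, VEGF and BMP4, followed by monolayer culture with VEGF, bFGF and FGF10, and were collected at day 5. The series holds 3 samples, of which 2 are Isl1 ChIP replicates and 1 is the input, which is chromatin set aside before the antibody was added. All 3 came from this line and this culture, with no mutant and no untreated group, and their growth protocol, which is the directed one, names no sort of reporter-positive cells before the ChIP. The methods of the study describe such a sort at day 5 for RNA extraction and for a hanging drop differentiation, so how many of the cells used here were reporter-negative is unknown. The peaks are a single list for both replicates with no score and no read numbers, so depth and replicate error are unknown here. Every comparison is therefore a description without a test, and each interval is a Wilson 95% interval for counting error only. The list holds no expression values, so the cell type could not be checked against its markers.

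Semaphorins are guidance ligands that repel or attract migrating cells and growing axons. The class 3 members are secreted and mostly act through a receptor complex of a neuropilin, which binds the ligand, and a plexin, which carries the signal into the cell through its GTPase-activating domain. The class 4, 5 and 6 members span the membrane, Sema7a is anchored to it by a lipid, and the collapsin response mediators (Crmp1, Dpysl2 and Dpysl3) are cytoplasmic proteins that link semaphorin signals to microtubules. In the embryonic heart this system is best known for guiding cardiac neural crest and endothelial cells during outflow tract septation, with Sema3c, Nrp1, Plxna2 and Plxnd1 as its classic members.

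Most member peaks fell into a promoter kind or a distal kind, and their sequences show the difference. A peak of Sema4a, 1417 bp upstream, and one of Sema6c, 8683 bp downstream, lay at distances between these kinds. The 5 stretches below are the central 120 bases, or the nearest stretch to the centre that avoids untranslated regions, of peaks within 1 kb of the assigned transcription start site (TSS), with 1 for each role that has such a peak. They are written 5′ to 3′ on the strand of the gene, from the mm9 sequence, and capitals mark CpG dinucleotides.
Sema3f (chr9:107612109-107612228, - strand): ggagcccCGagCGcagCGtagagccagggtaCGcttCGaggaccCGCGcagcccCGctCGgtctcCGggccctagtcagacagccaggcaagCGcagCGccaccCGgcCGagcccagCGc
Sema4c (chr1:36614554-36614673, - strand): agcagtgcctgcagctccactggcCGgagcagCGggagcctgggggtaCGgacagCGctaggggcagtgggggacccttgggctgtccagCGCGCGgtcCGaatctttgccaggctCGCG
Sema5a (chr15:32174448-32174567, + strand): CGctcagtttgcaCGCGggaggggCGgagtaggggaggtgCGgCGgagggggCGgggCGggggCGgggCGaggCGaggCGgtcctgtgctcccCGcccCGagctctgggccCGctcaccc
Plxna1 (chr6:89312168-89312287, - strand): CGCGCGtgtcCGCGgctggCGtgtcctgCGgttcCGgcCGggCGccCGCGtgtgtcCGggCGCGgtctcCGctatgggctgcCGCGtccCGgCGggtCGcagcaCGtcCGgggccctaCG
Crmp1 (chr5:37633384-37633503, + strand): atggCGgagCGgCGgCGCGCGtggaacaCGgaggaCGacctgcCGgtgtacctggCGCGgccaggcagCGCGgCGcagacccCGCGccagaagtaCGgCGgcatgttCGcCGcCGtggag

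Those 5 stretches held between 10 and 24 CpG each, with a GC content of 70.8% to 80%. The Crmp1 stretch lay in a coding exon, those of Sema3f, Sema4c and Plxna1 in an intron, and that of Sema5a ended 1 bp before the assigned TSS. The next pair is from the multi-copy peaks that lay farthest from any TSS, where multi-copy means that the 31-base words of the central 200 bp occurred at a median of 2 or more places in the genome. Capitals mark the longest run that both stretches have in common.
Nrp2 (chr1:62342478-62342597, + strand): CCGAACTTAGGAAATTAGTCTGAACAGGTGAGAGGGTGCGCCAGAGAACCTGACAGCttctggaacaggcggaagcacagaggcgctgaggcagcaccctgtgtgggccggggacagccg
Sema6d (chr2:123706105-123706224, + strand): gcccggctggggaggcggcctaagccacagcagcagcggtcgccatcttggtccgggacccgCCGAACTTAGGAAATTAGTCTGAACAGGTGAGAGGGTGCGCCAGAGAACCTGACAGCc

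That common run was 57 bases long. It was found whole, on either strand, in 5 of the 34 member peaks and in 1431 of all peaks (10.2%). The remaining multi-copy kind was built of short repeated units. The stretch from the peak 1417 bp upstream of Sema4a, shown for this and chosen after its values were seen, repeated a short pyrimidine unit and held no CpG.
Sema4a (chr3:88266462-88266581, - strand): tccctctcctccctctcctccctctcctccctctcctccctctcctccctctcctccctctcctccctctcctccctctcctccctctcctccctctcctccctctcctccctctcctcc

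Only 2 member peaks over 10 kb from a TSS had a single-copy centre, and both are shown here although they were also picked after their values were seen. Capitals mark the homeodomain core TAAT, or ATTA on the other strand.
Sema6d (chr2:123829538-123829657, + strand): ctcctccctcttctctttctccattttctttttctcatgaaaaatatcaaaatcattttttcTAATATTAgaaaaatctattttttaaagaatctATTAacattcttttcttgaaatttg
Plxnc1 (chr10:94334900-94335019, - strand): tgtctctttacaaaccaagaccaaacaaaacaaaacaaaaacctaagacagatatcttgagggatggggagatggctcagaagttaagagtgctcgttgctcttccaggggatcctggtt

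The Sema6d stretch had a GC content of 23.3% and no CpG, and that of Plxnc1 43.3% and 1 CpG. The centre of the Sema6d peak held 4 TAAT cores without overlap and that of the Plxnc1 peak held 1.

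The share of members with a peak was above that of all coding genes, and no test was made of the difference. An assigned peak was found for 71.9% of the members (23 of 32, interval 54.6% to 84.4%), and for 37.5% of 21887 protein-coding genes. Within 1 kb of the TSS, 17 members had a peak (53.1%, interval 36.4% to 69.1%), and so did 23.2% of coding genes. At least 2 peaks were assigned to 9 members (28.1%, interval 15.6% to 45.4%), and to 10.6% of coding genes. A single-copy peak was found for 17 members (53.1%), and for 27.6% of coding genes. Among genes with any peak, members had a mean of 1.48 peaks and coding genes 1.49. Of the 23 members, 14 had 1 peak, 8 had 2 and Sema6d had 4.

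The members were larger than other genes, and more of them had a CpG-rich promoter. The stretch of genome closer to a member's TSS than to that of another coding gene had a median of 94.3 kb, against 46.9 kb for all annotated coding genes, and the genes themselves were 57.9 kb long at the median against 15.5 kb. A CpG-rich promoter, computed from the sequence, was found for 25 of the 32 members (78.1%, interval 61.2% to 89.0%) and for 43.2% of coding genes. CpG-rich here means that at least 1 annotated TSS had, within 500 bp on either side, an observed to expected CpG ratio of 0.6 or more and a GC content of 55% or more. Within the members size went the other way for promoter peaks, since the 18 with a peak within 1 kb of an annotated TSS had a median stretch of 64.3 kb and gene length of 48.2 kb, against 171.7 kb and 116.4 kb for the 14 without. The part of size and CpG content in the counts of peaks was not tested.

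**Figure D1:**
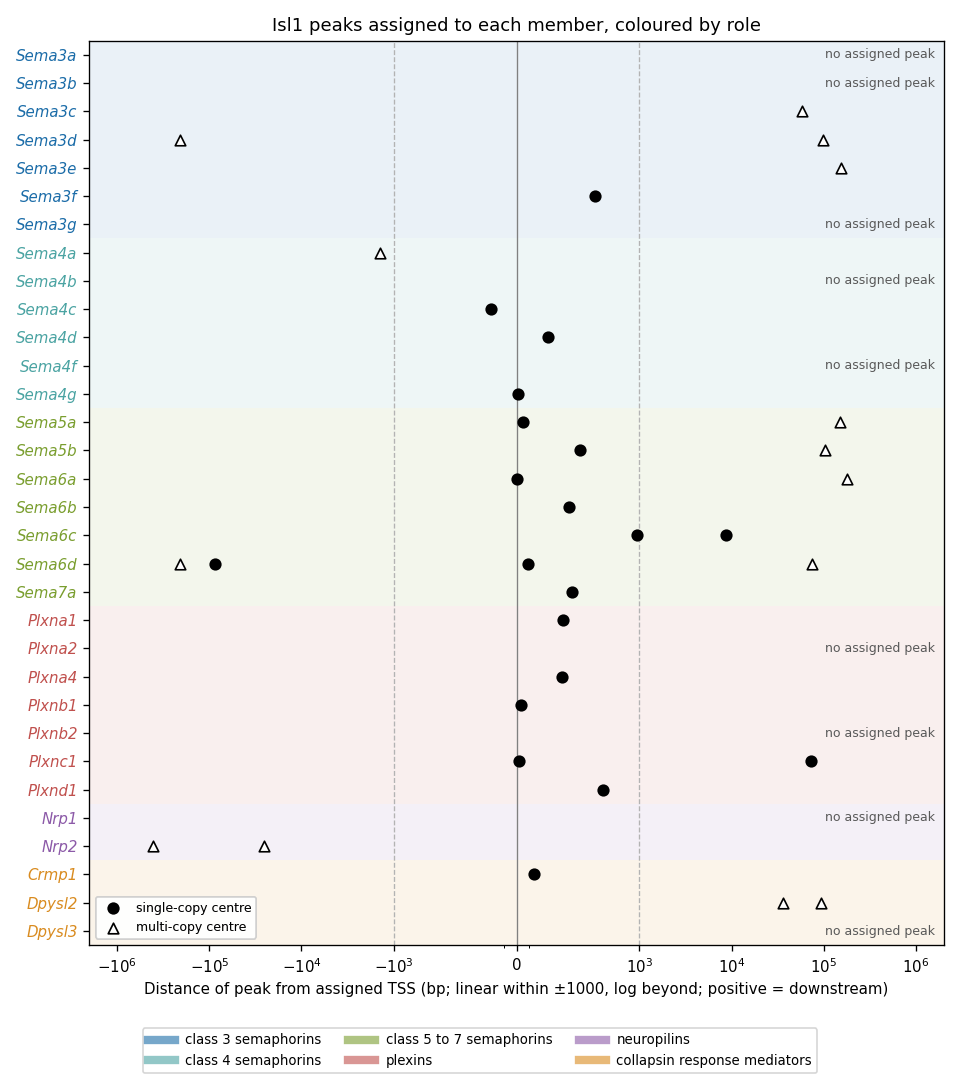
Each row is 1 of the 32 members, coloured by role, and each symbol is 1 of its assigned peaks, placed by its distance in bp from the assigned TSS (linear within 1000 bp, marked by dashed lines, and logarithmic beyond). Filled circles are single-copy and open triangles multi-copy; all 17 peaks within 1 kb are circles, and all 7 members of classes 5 to 7 have such a peak.

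The roles differed in which kind of peak they had. All 7 semaphorins of classes 5 to 7 and 5 of the 7 plexins had a promoter peak, meaning that it lay no farther than 1 kb from its TSS. The same held for 3 of the 6 class 4 semaphorins, for 1 of the 7 class 3 semaphorins, for 1 of the 3 collapsin response mediators and for neither neuropilin. Sema3c, Sema3d, Sema3e and Nrp2 had distal peaks of multi-copy sequence and no promoter peak. Over all coding genes 23.2% had a promoter peak. A CpG-rich promoter was found for all 7 members of classes 5 to 7, all 7 plexins, 4 of class 4 and 2 of class 3. The 3 collapsin response mediators and both neuropilins had one too. These groups are small and the roles were not compared by a test.

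Among the secreted class 3 semaphorins, Sema3f, a ligand that binds Nrp2, had the only promoter peak. It spanned chr9:107611521-107612816, was 1295 bp wide, lay 638 bp downstream of the TSS in an intron and was single-copy. Sema3c, the ligand that guides neural crest cells into the outflow tract, had 1 peak of 611 bp at chr5:17138950-17139561, in its own intron 58621 bp downstream of the TSS, with a median of 327 copies. Sema3d, which acts on neural crest and endothelial cells, had 2 peaks. The first, 725 bp at chr5:12177422-12178147, was intergenic, 205382 bp upstream, with 18204 copies at its centre and 3 over the whole peak. The second, 1140 bp at chr5:12480870-12482010, lay in its own intron 98274 bp downstream, with 144 copies. Sema3e, the ligand of Plxnd1, had 1 peak of 1076 bp at chr5:14179842-14180918, in its own intron 155104 bp downstream, with 2340 copies. Thus 4 of the 5 class 3 peaks were multi-copy and over 10 kb away, and Sema3a, Sema3b and Sema3g had no assigned peak.

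The transmembrane class 4 semaphorins had 4 peaks, all within 2 kb of a TSS. Sema4c, a ligand of B-type plexins, had the only member promoter peak that was centred upstream of its assigned TSS, by 211 bp. It was 1706 bp wide at chr1:36613760-36615466 and fell in an intron, since another annotated TSS of Sema4c lies farther upstream. Sema4d, the ligand of Plxnb1, had a peak of 786 bp at chr13:51888468-51889254, 255 bp downstream in an intron. Sema4g had a peak of 669 bp at chr19:45063508-45064177, which was centred 8 bp downstream of the TSS in an untranslated region. All 3 were single-copy. Sema4a, known for its role in immune cells and the retina, had a peak of 1077 bp at chr3:88265983-88267060, 1417 bp upstream, with 172 copies at its centre and 1 copy over the whole peak. It lay just outside the 1 kb limit, and the 976 bp of a Sema6c peak just inside it. Sema4b and Sema4f had no assigned peak.

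Classes 5 to 7 carried 14 of the 34 member peaks. Sema5a, a transmembrane semaphorin with thrombospondin repeats, had a single-copy peak of 925 bp at chr15:32174155-32175080, 49 bp downstream of the TSS. Its second peak, 1065 bp at chr15:32325039-32326104, lay 151003 bp downstream in its own intron and had 1450 copies. Its relative Sema5b showed the same arrangement, with a single-copy peak of 1702 bp at chr16:35541110-35542812, 513 bp downstream, and a peak of 1280 bp at chr16:35643621-35644901, 102813 bp downstream, with 129.5 copies. Sema6a, a ligand of A-type plexins, had a single-copy peak of 680 bp at chr18:47528179-47528859 centred 3 bp from its TSS. Its other peak, 1383 bp at chr18:47347780-47349163 with 2798 copies, was 180051 bp downstream, past the end of Sema6a by 46781 bp and inside an intron of Commd10.

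Sema6b and Sema6c each had a wide peak near the end of the gene as well as one near its start. Sema6b had an assigned peak of 1222 bp at chr17:56278727-56279949, 428 bp downstream of the TSS in an intron. A second peak, 1974 bp at chr17:56262544-56264518, was assigned to the neighbour Lrg1 but was centred in a coding exon of Sema6b, 1023 bp before the end of that gene, and was single-copy with a GC content of 74.5% at its centre. Sema6c had a peak of 705 bp at chr3:94964966-94965671, 976 bp downstream in an intron. Its second peak, 1963 bp at chr3:94975963-94977926, was also single-copy and in a coding exon, 1002 bp before the end of the gene. The distance given for it, 8683 bp, was counted from a TSS 3919 bp downstream of the first. Sema7a, the lipid-anchored member, had a single-copy peak of 1486 bp at chr9:57787648-57789134, 449 bp downstream in an intron.

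Sema6d, a ligand of Plxna1 with a known part in cardiac tube formation, had the most peaks. They were assigned through 3 start sites, the second of which lay 520327 bp downstream of the first. The promoter peak, 1360 bp at chr2:124435442-124436802, was centred 90 bp downstream of the second start site and was single-copy. Of the 2 peaks before the first start site, that at chr2:123705595-123706734 (1139 bp) was 209541 bp upstream with 2913 copies, and that at chr2:123829288-123829906 (618 bp) was 86108 bp upstream with a single copy. The fourth peak, 629 bp at chr2:124554209-124554838 with 292 copies, lay 75206 bp downstream of the third start site and 61017 bp past the end of the gene. No peak was centred within 1 kb of the first start site.

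The 3 widest promoter peaks of the members were those of plexins. Plxna1, a partner of neuropilins and a receptor of Sema6d, had 1757 bp at chr6:89311349-89313106, 380 bp downstream of the TSS. Plxna4, a receptor of Sema3a and Sema6a, had 1566 bp at chr6:32537039-32538605, 370 bp downstream. Plxnb1, the receptor of Sema4d, had 1158 bp at chr9:108997403-108998561, 32 bp downstream. Plxnc1, the receptor of Sema7a, had 2138 bp at chr10:94406124-94408262, 19 bp downstream in a coding exon. Plxnd1, the endothelial receptor of Sema3e, had 2039 bp at chr6:115943302-115945341, 702 bp downstream in a coding exon. All 5 were single-copy, and their median width was 1757 bp. Over all peaks within 1 kb the median was 1050 bp, and 38.3% were at least as wide as that of Plxnb1, the narrowest of the 5. Among the members, 12 of the 17 promoter peaks were that wide. The 5 plexin peaks are among these by construction, since the limit was taken from them, so this count shows no excess of width. The other plexin peak, 637 bp at chr10:94334641-94335278, was in an intron of Plxnc1, 72253 bp downstream, single-copy and with a GC content of 40.5% at its centre.

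Of the neuropilins, Nrp2, which binds Sema3f and VEGF-C, had 2 peaks, both upstream and multi-copy. The peak at chr1:62341839-62343236 (1397 bp, 2269 copies) was 407354 bp from the TSS in an intron of Pard3b, and that at chr1:62723794-62724402 (608 bp, 2194.5 copies) was 25793 bp from it and intergenic. Nrp1, which binds Sema3a and VEGF-A, had none. Crmp1 had a single-copy promoter peak of 1264 bp at chr5:37632803-37634067, 138 bp downstream in a coding exon. Dpysl2 had 2 assigned peaks, which were the narrowest of all member peaks. That of 351 bp at chr14:67451638-67451989 lay in an intron, 35624 bp downstream, with 2 copies at its centre and 1 over the whole peak. That of 455 bp at chr14:67394431-67394886 lay 92779 bp downstream, 27043 bp past the end of the gene. It had 1438 copies at its centre and 26 over the whole peak.

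Dpysl2 also had a promoter peak under another name. A single-copy peak of 922 bp at chr14:67487419-67488341 was centred 355 bp from an annotated Dpysl2 TSS, but was assigned to Gm5464, whose TSS was 193 bp away. Counted by position alone, 18 of the 32 members (56.2%, interval 39.3% to 71.8%) had a peak centred within 1 kb of an annotated TSS, and 26.1% of annotated coding genes did. Other peaks inside members but assigned elsewhere were multi-copy, apart from the Sema6b peak at Lrg1. They were in introns of Sema4d (5 copies, assigned to Secisbp2), Sema6d (2207 copies, assigned to 4930583P06Rik), Plxna2 (200.5 copies, assigned to Mir3962) and Plxna4 (174.5 copies, assigned to Plxna4os1).

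For the 9 members without an assigned peak, the nearest peak to an annotated TSS belonged to other genes. For 5 of them it was the promoter peak of a neighbour, at 11275 bp from Sema3g (Nisch), 21090 bp from Plxnb2 (Mapk11), 26140 bp from Sema3b (Gnai2), 71638 bp from Sema4b (Idh2) and 114952 bp from Sema4f (Htra2). For the other 4 it was a multi-copy peak away from any promoter. It lay 130111 bp from the TSS of Plxna2, inside that gene. It lay 322252 bp from that of Nrp1 and was assigned to Itgb1, at -4329 bp from the TSS of that gene, and 342194 bp from that of Dpysl3 and was assigned to Ppp2r2b. Sema3a was the farthest, at 471639 bp from a peak assigned to Speer3. Of the classic outflow tract members, Plxnd1 thus had a promoter peak, and Sema3c, Nrp1 and Plxna2 did not. These are too few to compare with the 23.2% of all coding genes that had one. The study names Plxna2 among its Isl1 target genes, and its ChIP-Seq also covered embryos, which are not in this list. A peak just under the calling threshold in either replicate would not be in the list.

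The promoter peaks sat just inside their genes. Of the 34 member peaks, 17 were within 1 kb of the assigned TSS (50.0%, interval 34.1% to 65.9%), against 38.5% of all peaks. Of those 17, 16 were centred downstream of the TSS (94.1%, interval 73.0% to 99.0%), and so were 80.9% of all peaks within 1 kb. Their median distance was 255 bp downstream, and that of all such peaks 152 bp. By annotation, 6 were centred in an untranslated region, 3 in a coding exon and 8 in an intron. None of the 17 had the TSS of another coding gene within 1 kb. No share over all peaks is given for this or for the split by annotation, so neither can be called particular to the members. Their centres had a GC content of 72.8% ± 4.03 (SD over 17 peaks), with a range of 66% to 80.5%, and all peaks within 1 kb had 73.7% ± 5.88. The median observed to expected CpG ratio was 0.850, against 0.930.

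**Figure D2:**
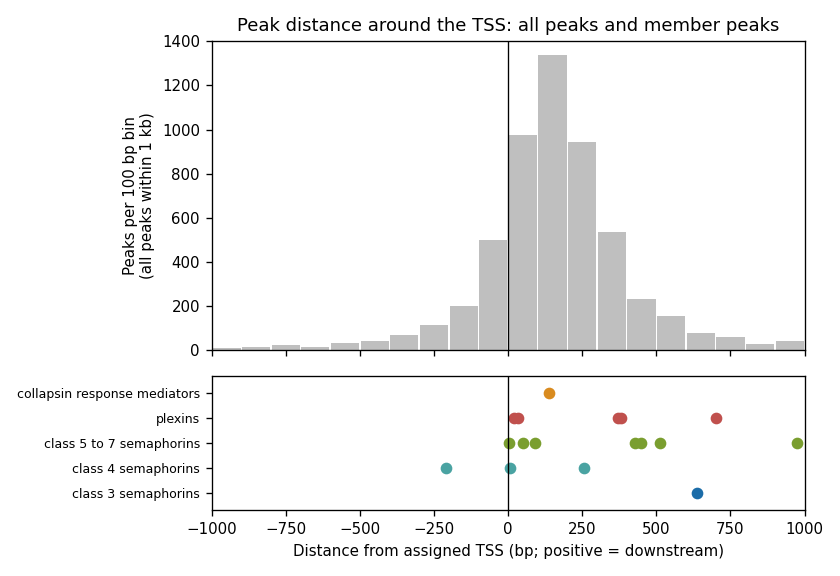
The upper panel counts all 5416 peaks within 1 kb of the assigned TSS in bins of 100 bp (x axis, distance in bp, positive downstream), and the lower panel gives the 17 member peaks by role on the same axis. The bulk of all peaks lies between the TSS and 300 bp downstream, and 16 of the 17 member peaks lie downstream, the farthest at 976 bp.

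A promoter peak was more frequent among members with a CpG-rich promoter than among the others. Of the 25 members with a CpG-rich promoter, 17 had a peak within 1 kb of an annotated TSS (68.0%, interval 48.4% to 82.8%), as did 54.7% of all CpG-rich coding genes. Of the other 7 members, only Sema3f did (14.3%, interval 2.57% to 51.3%), as did 4.33% of the other coding genes. The intervals of these member groups overlap. The median CpG ratio was 0.785 over the 18 members with such a peak and 0.657 over the 14 without. The ranges overlapped, from 0.501 (Sema3f) to 1.01 (Crmp1) with a peak and from 0.177 (Sema3g) to 0.842 (Sema3c) without. By role, the median ratio was 0.628 in class 3, 0.627 in class 4, 0.754 in classes 5 to 7, 0.877 in the plexins, 0.734 in the neuropilins and 0.915 in the collapsin response mediators. The last 2 roles, with the promoter peak at Dpysl2 counted, had a promoter peak in 0 of 2 and 2 of 3 members. Nrp2 (0.826) and Plxnb2 (0.826) had none, while Sema4d (0.631) and Sema5a (0.668) had a promoter peak. Each ratio is that of the annotated TSS with the highest ratio, which need not be the one with the peak. The part of CpG content in these counts was not tested.

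**Figure D3:**
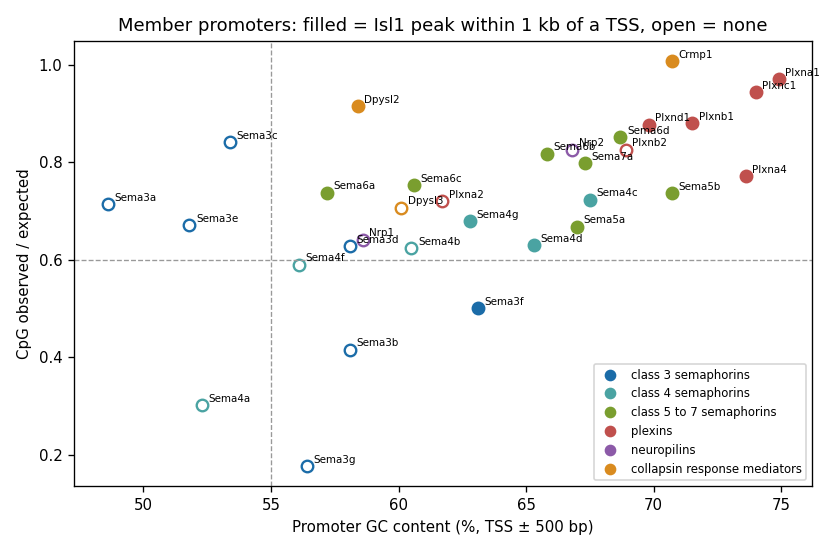
Each point is the promoter of 1 member, by GC content in percent (x axis) and observed to expected CpG ratio (y axis) of the 1000 bp around the annotated TSS with the highest ratio. Filled points have a peak within 1 kb of a TSS, and dashed lines mark 55% and 0.6. The 5 filled plexins lie above 0.77, and 6 of the 7 class 3 semaphorins are below one of the lines. Sema3c, among these 6, still counts as CpG-rich through another TSS.

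The distal peaks were mostly repeated sequence, in the members as in the whole list. Of the 34 member peaks, 15 were over 10 kb from the assigned TSS (44.1%, interval 28.9% to 60.5%), and so were 51.1% of all peaks. They comprised 9 in introns and 6 between genes, and 7 of the 15 overlapped the gene they were assigned to. Multi-copy centres were found in 13 of the 15 (86.7%, interval 62.1% to 96.3%), and in 81.2% of all peaks at this distance. Within 1 kb they were found in 0 of 17, which allows a share of up to 17.6% (3 counts of 17), and in 2.57% of all peaks. Over all distances 14 of the 34 member peaks were multi-copy (41.2%, interval 26.4% to 57.8%), against 46.5% of all peaks. With 75-base words the member share was 23.5%, and that of all peaks is not given. The distal member peaks were 725 bp wide at the median, against 1295 bp for the promoter peaks, and their GC content was 56.1% ± 11.3 (SD over 15 peaks), against 61.6% ± 7.88 for all distal peaks.

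The 14 multi-copy member peaks were of 2 kinds. In 8 of them (23.5% of member peaks, interval 12.4% to 40.0%) the central 200 bp held only 9 to 34 distinct words of 6 bases, out of a possible 195, and were thus low in complexity. Under 100 such words were found in 19.9% of all peaks. These 8 were the peak of Sema3c, both of Sema3d, that of Sema4a, the distal peak of Sema5b, the Sema6d peak past the gene end and both assigned to Dpysl2. The centres of the upstream Sema3d peak and of the Sema4a peak had purines on one strand for 100% of bases. With words of 75 bases the copy number of the 8 was between 1 and 49. With 31-base words over the whole peak it was between 1 and 204. The other 6 had 182 to 187 distinct words, between 1450 and 2913 copies with 31-base words, and still 506.5 to 799 with 75-base words.

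Of those 6, the peaks of Sema3e, Sema5a and Sema6d and both of Nrp2 were related in sequence. Each pair of the 5 had between 34.9% and 55.3% of the 31-base words of the shorter peak in common. They held the 57-base run printed above, and each had at least 10% of its words in common with between 1489 and 1719 other peaks of the list. The distal Sema6a peak had no such word in common with another member peak, but at least 10% with 932 other peaks. So the distal peaks of Nrp2, Sema3e and Sema5a and the Sema6d peak 209541 bp upstream held copies of 1 repeated sequence that recurs through the list. The study aligned its reads with bowtie2 at default settings. How reads were placed among the copies cannot be seen from the list, so binding cannot be tied to these particular copies.

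**Figure D4:**
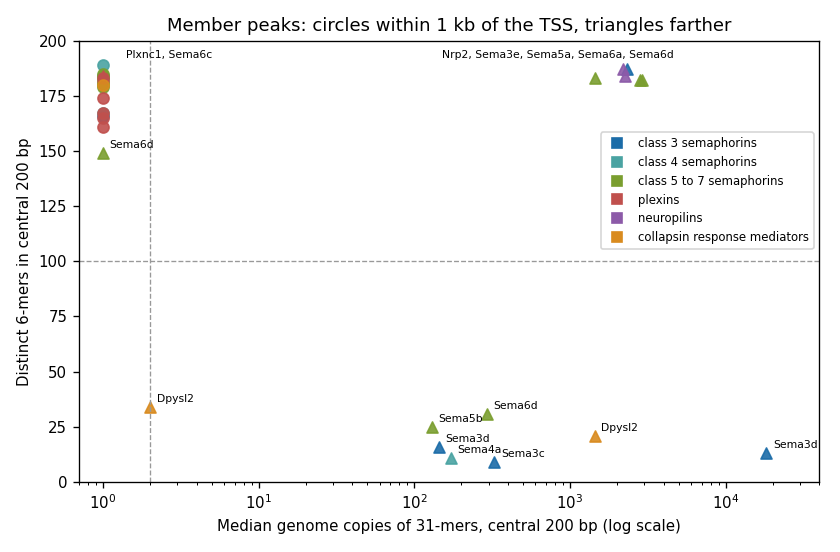
Each symbol is 1 of the 34 member peaks, by the median number of genome copies of its 31-base words (x axis, log scale) and the number of distinct 6-base words in its central 200 bp (y axis); circles are within 1 kb of the TSS and triangles farther. The promoter peaks stack at 1 copy, 8 low-complexity peaks lie under the dashed line at 100 words, and 6 complex repeats lie above 1000 copies.

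Short strings that transcription factors are known to bind were searched in the peak centres. The LIM-homeodomain strings CTAATTG as well as CTAATGG, searched on both strands of the central 200 bp, were in 0 of 34 member peaks, which allows a share of up to 8.82% (3 counts of 34), and in 0.412% of all peaks. The shorter core TAAT was in 8 member peaks (23.5%), namely the 5 related repeats, the 2 distal single-copy peaks of Sema6d and Plxnc1 and, as the only promoter peak, that of Sema6b. It was in 19.4% of all peaks. The GATA strings, AGATAA besides AGATAG as well as TGATAA besides TGATAG, were in 2 (5.88%), against 4.22%. These were the promoter peak of Plxnc1, with 1 match, and the low-complexity peak past the end of Dpysl2, with 18. The GC box GGGCGG was in 13 member peaks (38.2%) and in 42.0% of all peaks, and within 1 kb in 9 of 17 (52.9%) and in 65.7%. Such matches only say that the letters are present.

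The 2 single-copy distal peaks stood at the low end of GC content for their kind. Of the 1354 single-copy peaks over 10 kb from a TSS in the whole list, the median GC content of the centre was 63.5%, with quartiles of 54% and 70%. The upstream Sema6d peak had 31%, and 0.295% of these peaks were at or below it. The intronic Plxnc1 peak had 40.5%, and 3.69% were at or below that. The 2 peaks were picked out after their values were seen.

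Co-receptors, effectors and family members beyond the 32 were counted in the same way. Of 39 such partner genes, 17 had an assigned peak (43.6%, interval 29.3% to 59%), against 37.5% of all coding genes, and 15 had one within 1 kb (38.5%, interval 24.9% to 54.1%), against 23.2% of coding genes. Both intervals overlap those of the members. Among the GTPases that plexins act on or bind, Rac1 (184 bp), Rap1a (204 bp), Rhoa (317 bp) and Mras (113 bp) had a promoter peak, at the distance given, and Rras, Rnd1, Rnd2 and Rnd3 had no peak. Of their exchange factors, Farp1 (120 bp), Farp2 (11 bp) and Arhgef12 (204 bp) had one and Arhgef11 had no peak. Of the kinases, Fyn (229 bp), Gsk3b (429 bp) and Limk2 (80 bp) had one, and Limk1, Pak1, Cdk5 and Fes had no peak. The adaptor Gipc1 had one (6 bp). The receptors that associate with plexins or bind semaphorins, Met (158 bp), Erbb2 (389 bp), Ptk7 (438 bp) and Itgb1 (234 bp), had one too, and Mst1r, Cd72, Trem2 and L1cam had no peak. Chl1 and Mical3 had distal peaks only, and Plxna3, Plxnb3, Dpysl4 and Dpysl5 had none.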

How the data were processed

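Isl1 was immunoprecipitated from chromatin of day 5 CPCs in 2 replicates, with 1 input, and groups were taken from the sample titles. The deposited values are other than counts: 1 peak list with position, signed distance to the closest TSS, RefSeq accession and symbol. According to the methods of the study, the authors aligned reads to mm9 with bowtie2, removed duplicates with Picard 1.136, called peaks with MACS14 (no model, shift size 80), dropped blacklisted regions, intersected the replicates with bedtools 2.15 and annotated peaks with HOMER. Depth per sample is unknown here, and starts are uncertain by 1 bp because the counting base is not stated.

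Here repeated lines were dropped (14165 to 14082). Symbols were matched to RefSeq genes of GRCm38.p6, used for names only, directly, by accession or by synonym (99.9%, with 8 unmatched). Sequence and gene positions came from NCBI m37, whose sequence is that of mm9, with GENCODE vM1. Copy numbers were counted on both strands of the genome, and the counting was tested on simulated data. Repeats were not named, since no repeat annotation was used. Alternatives covered peak width, merging, copy number, word length, part of the peak, distance limit and assignment. Python 3.11.15, numpy 2.4.6, pandas 2.3.3, scipy 1.17.1, numba 0.67.0 and matplotlib 3.10.9 were used.

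The members and lists were chosen with earlier results of these data known. All 32 members were to be named with every peak, and partners only where a peak lay within 1 kb of a TSS. Sequences were to come from promoter peaks, 1 per role, and from the 2 farthest multi-copy peaks. Partners without a promoter peak, the complexity measure, the TAAT search and 3 of the printed stretches were added after values were seen.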

Additional observations from a re-analysis of the deposited data

How the results depend on the processing

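Of 46 alternative values for 10 results, 39 stayed within tolerance and 7 moved. The tolerance was 1.5 times for a count and the 95% interval for a share or median and 1 SD for a mean, so a GATA share of 3.12% among peaks of at least 500 bp, against 5.88%, counts as within it. Requiring at least 2 peaks per gene left 9 members and 4 partner genes. Keeping only single-copy peaks left 20 member peaks, of which 85.0% were within 1 kb of the assigned TSS. In the whole list multi-copy centres were also rarer within 1 kb (2.57%) than over 10 kb (81.2%). This filter therefore raises the share near the TSS over all peaks too, and that all-peak share is not given here. With 75-base words, 23.5% of member peaks were multi-copy. Searching the whole peak in place of its centre gave GATA strings in 32.4% and the GC box in 64.7%. No share over all peaks is given for the whole peak or for 75-base words. These values therefore cannot be set against the all-peak shares of the centres.

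The count of members with a peak ranged from 17 (single-copy peaks, or peaks within 1 kb) to 24 (closest coding TSS of the annotation) under the other alternatives. The latter gave Plxna2 2 peaks and Sema6d and Plxna4 1 more each, took 1 from Dpysl2 and raised the member peaks to 37. Chosen after seeing the data, leaving out low-complexity peaks gave 19 members, without Sema3c, Sema3d, Sema4a and Dpysl2. No paired analysis was possible because the list combines both replicates and gives no test. For the same reason no replicate could be left out. The lack of read numbers limits every value to presence or absence at the caller's threshold.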
